A study of Mus musculus with 10 samples.

Results

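The small leucine-rich proteoglycans were followed in bulk RNA-seq of mouse sarcomas through 10 genes, chosen by name: Dcn, Bgn, Aspn, Lum, Fmod, Prelp, Kera, Omd, Ogn and Podn. All 10 were among the 56750 features of the count table. The tumors came from 2 models. The dFLEx group held 3 tumors (170019, 170024 and 170025) of genotype dFLEx CDS +/-, in which a CIC::DUX4 fusion at the Rosa26 locus is driven by the ubiquitous CAG promoter once Cre and FLP have both acted. In this model plasmids for both recombinases are electroporated into the gastrocnemius muscle, and neither they nor the CAG promoter are specific to a cell type. The 2 tumors of the KP group (3800 and 3802) carried the p53fl/fl genotype and no CIC::DUX4 construct. The site and means of induction of these KP tumors, and the ages of the mice at collection in either group, are not given in the sources used here. No sample was treated, and neither group includes normal muscle. Per the labels the RNA of each tumor was split into duplicate libraries, and the tumor is the replicate throughout (n = 3 and n = 2). Duplicates were added up for 4 tumors, while KP tumor 3802 rests on 1 library.

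These proteins are secreted into the extracellular matrix, where arched leucine-rich repeats bind fibrillar collagens and control the assembly, width and spacing of the fibrils. Several also bind growth factors of the TGF-beta family. Decorin and biglycan, of class I, carry chondroitin or dermatan sulfate chains, lumican, fibromodulin and keratocan, of class II, carry keratan sulfate, and fibroblasts, tendon, cartilage and bone cells are their usual sources.

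The 9 libraries used here held 20503474 to 46302223 counts, and 24280 to 36904 features had counts, the most in KP tumor 3802 although it had the fewest counts. The transgene was found at 89.3, 192 and 409 CPM (a gene's count relative to the library's total, on a fixed scale) in dFLEx tumors 170019, 170024 and 170025. In KP tumors 3800 and 3802 it was at 0 and 0.29 CPM. The wide gap matches the labelled genotypes, but the value in 3802 lay above 3 counts, which equal 0.146 CPM in that library. The source of those counts was not tested. Levels below are RPKM, which are TMM-scaled CPM divided by the exonic length in kilobases, so that genes of different length can be set side by side. The CPM given below for genes and marker lists are TMM-scaled too, while the filter's cutoff and the count limits refer to library totals. Differences are log2 fold changes of dFLEx over KP with their standard error (SE), from edgeR's quasi-likelihood test.

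All 10 members passed the filter on low counts and were tested, and in every one of the 5 tumors each lay above the filter's cutoff of 0.165 CPM. For 7 of 10 members the lowest TMM-scaled dFLEx value was higher than the highest KP value, and for none was the reverse seen. Over all 24743 genes tested, 13.7% were placed higher in this way and 11.7% lower. Those 7 were Bgn, Aspn, Lum, Fmod, Prelp, Ogn and Podn, while the groups overlapped for Dcn, Kera and Omd. For Lum and Ogn this depended on the scaling. Their nearest tumors lay 1.19-fold and 1.02-fold apart, while the TMM factors ran from 0.8475 in dFLEx tumor 170019 to 1.2058 in KP tumor 3802. The median log2 fold change of the members was 1.70, beside -0.18 over all genes tested. None of the 10 passed an adjusted p of 0.05 in edgeR, a threshold that 0.182% of all tested genes (45) passed in either direction. At an unadjusted edgeR p under 0.05, 6 members were higher and 0 lower in dFLEx, beside 5.65% of all genes higher and 4.93% lower. DESeq2 on the same tumor sums called 3 members higher (Fmod, Prelp and Podn), where 3.45% of all its tested genes were called higher. A limma-voom fit on libraries with tumors as random effects called Aspn, Fmod and Podn (1.61% of genes), and edgeR without the filter on low counts called Fmod (1.19%). Fits that took the duplicates as separate samples called 5 members in edgeR (8.24% of genes), the same 5 with the duplicate number as a block (6.14%), and 7 in DESeq2 (9.79%), but duplicates share 1 RNA. In bulk tissue, fewer cells of a type and less RNA per cell cannot be told apart.

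**Figure D1:**
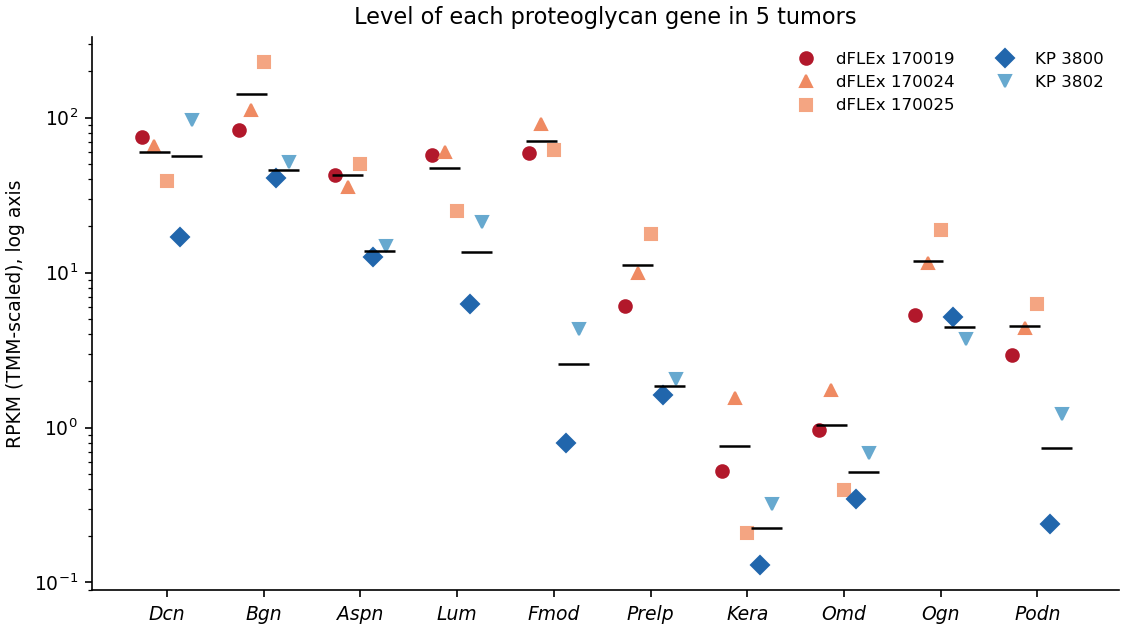
Level of each of the 10 genes in each of the 5 tumors (RPKM on a log axis, 1 point per tumor, coloured by group). The 3 dFLEx points of Fmod lie between 59.2 and 91.2 RPKM and both KP points lie under 4.35 RPKM, whereas for Dcn the KP points, at 17.0 and 96.9 RPKM, enclose the dFLEx points.

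Decorin (Dcn; ENSMUSG00000019929, GRCm39 chromosome 10, 97315471 to 97354005, plus strand) binds collagen I and limits the lateral growth of its fibrils. It was at 75.0, 65.3 and 39.1 RPKM in dFLEx tumors 170019, 170024 and 170025, and at 17.0 and 96.9 RPKM in KP tumors 3800 and 3802. The KP tumors were thus the lowest and the highest of the 5, and the groups overlapped completely. The log2 fold change was 0.07 (SE 0.77, edgeR adjusted p = 0.99), and its sign depended on the scaling and on which tumor was left out: it was 1.84 without KP tumor 3802 and -0.54 without KP tumor 3800.

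Biglycan (Bgn; ENSMUSG00000031375, chromosome X, 72527208 to 72539539, plus strand), the class I paralog of decorin, is abundant in bone and growing matrix. Its level was 82.9, 112 and 229 RPKM in the dFLEx tumors and 40.7 and 51.7 RPKM in the KP tumors. The dFLEx values were all higher, that of tumor 170025 by the widest margin. This gave a log2 fold change of 1.61 (SE 0.64), with an unadjusted p of 0.0371 and an adjusted p of 0.422 in edgeR. Without tumor 170025 it was 1.06. Bgn had the highest level per length of the 10 genes in 4 of 5 tumors, and Dcn had it in KP tumor 3802.

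Asporin (Aspn; ENSMUSG00000021388, chromosome 13, 49697919 to 49721041, plus strand) belongs to class I by sequence, carries a run of aspartate residues in place of glycosaminoglycan chains, and binds TGF-beta. It was at 42.7, 35.5 and 50.1 RPKM in dFLEx tumors and at 12.5 and 14.9 RPKM in KP tumors. It had the narrowest spread of the 10 genes within both groups, with 1.41-fold between the highest and the lowest dFLEx tumor and 1.19-fold between the KP tumors. On the log2 scale the difference was 1.64 (SE 0.56), with an unadjusted p of 0.0196 and an adjusted p of 0.329 in edgeR, and it stayed between 1.50 and 1.79 whichever tumor was left out.

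Fibromodulin (Fmod; ENSMUSG00000041559, chromosome 1, 133964992 to 133976015, plus strand), a keratan sulfate proteoglycan of tendon and cartilage, guides collagen cross-linking and the maturation of thin fibrils into thick ones. It showed the widest separation of the members. Its level was 59.2, 91.2 and 62.3 RPKM in dFLEx tumors 170019, 170024 and 170025, and 0.80 and 4.34 RPKM in KP tumors 3800 and 3802. The smallest dFLEx value exceeded the larger KP value 13.6-fold, while the dFLEx tumors differed among themselves by 1.54-fold and the KP tumors by 5.45-fold. The log2 fold change was 4.79 (SE 0.94), with an unadjusted p of 0.000971 and an adjusted p of 0.109 in edgeR. By level per length, Fmod ranked 3, 2 and 2 of the 10 genes in the dFLEx tumors and 7 and 5 in the KP tumors. The call depended on the KP tumors: without 3802 the log2 fold change was 6.49 with an edgeR adjusted p of 0.0257, a fit in which 0.646% of genes were called higher, and without 3800 it was 4.19 with an adjusted p of 0.177. In both of these fits the lone KP tumor was assumed to vary like the dFLEx tumors.

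The 250 bases upstream of the Fmod and Aspn start sites are printed because Fmod had the largest difference between the groups and Aspn the smallest spread within them. They are from RefSeq on GRCm38.p6, an older build than the count table's, both on the plus strand, at chr1:134037004-134037253 for Fmod and chr13:49544193-49544442 for Aspn. Capitals mark TATAAA or its reverse complement.
Fmod: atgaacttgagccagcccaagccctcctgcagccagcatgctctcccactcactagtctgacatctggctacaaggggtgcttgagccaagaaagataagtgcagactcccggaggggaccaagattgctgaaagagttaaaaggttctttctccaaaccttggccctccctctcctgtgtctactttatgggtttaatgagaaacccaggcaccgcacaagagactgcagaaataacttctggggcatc
Aspn: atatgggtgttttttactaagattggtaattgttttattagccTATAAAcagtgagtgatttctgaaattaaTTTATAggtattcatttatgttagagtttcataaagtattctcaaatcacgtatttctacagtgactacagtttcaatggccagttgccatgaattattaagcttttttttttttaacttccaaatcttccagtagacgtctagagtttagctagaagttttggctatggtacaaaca
The motif occurs at -207 and, on the other strand, at -178 from the Aspn start site, and nowhere in the stretch printed for Fmod.

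RefSeq promoter windows of 300 bases, from 250 before to 50 after the start site, were found for 8 of the 10 members, with 9 windows in all because Podn has 2. Dcn and Lum had no entry. Both strands were searched. TATAAA was found in the windows of Aspn and Ogn, with its matches in Ogn overlapping on the 2 strands, and in 13.6% of all 32851 promoters. The octamers TGAATGAA and TGAATGGA, which the CIC protein is known to bind, were in 0 of the 9 windows and in 2.47% of all promoters. An ETS word, CCGGAAGT, was in 0 of 9 and in 3.89% of all, and an AP-1 word, TGANTCA, in 0 of 9 and in 7.81% of all. These counts say only that the letters are not in these windows.

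Lumican (Lum; ENSMUSG00000036446, chromosome 10, 97400990 to 97408565, plus strand) binds the same region of collagen as fibromodulin and is best known from the transparent stroma of the cornea. Its level was 57.1, 60.1 and 25.1 RPKM in dFLEx tumors and 6.25 and 21.1 RPKM in KP tumors. At this scaling the groups did not overlap, but the lowest dFLEx tumor, 170025, lay only 1.19-fold above KP tumor 3802. The difference was 1.80 on the log2 scale (SE 0.76), with an unadjusted p of 0.0467 and an adjusted p of 0.46 in edgeR. It was 2.94 without KP tumor 3802 and 1.33 without KP tumor 3800.

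Prelp (ENSMUSG00000041577, chromosome 1, 133838042 to 133849152, minus strand), which anchors basement membranes to the collagen beneath them, was at 6.08, 10.0 and 17.7 RPKM in dFLEx tumors and at 1.62 and 2.07 RPKM in KP tumors. The groups did not overlap, with a 2.94-fold gap between the nearest tumors. Its log2 fold change was 2.61 (SE 0.72), with an unadjusted p of 0.00694 and an adjusted p of 0.215 in edgeR. Counting ignored strand, and 350 exonic bases of Prelp (9.68%) overlap the opposite-strand gene Gm15851, so reads over that stretch were not counted for either gene.

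Keratocan (Kera; ENSMUSG00000019932, chromosome 10, 97442741 to 97449554, plus strand), typical of corneal keratocytes, had the lowest level per length in every tumor. It was at 0.52, 1.54 and 0.21 RPKM in dFLEx tumors and at 0.13 and 0.32 RPKM in KP tumors, from 4 to 107 counts per library. The groups overlapped, the dFLEx tumors differed among themselves by 7.35-fold, and the duplicates of KP tumor 3800 differed by 3.30-fold. The log2 fold change was 1.77 (SE 1.16, edgeR adjusted p = 0.751), and it was 0.70 without dFLEx tumor 170024 and 2.56 without KP tumor 3802.

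Osteomodulin (Omd; ENSMUSG00000048368, chromosome 13, 49735938 to 49746298, plus strand), a proteoglycan of bone matrix, was also low. It was at 0.96, 1.75 and 0.40 RPKM in dFLEx tumors and at 0.35 and 0.69 RPKM in KP tumors. The groups overlapped, with tumor 170025 under KP tumor 3802, and the log2 fold change was 1.01 (SE 0.92, edgeR adjusted p = 0.858). Tumor 170024 was the highest for both Kera and Omd, and without it the log2 fold change of Omd was 0.40.

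Osteoglycin (Ogn; ENSMUSG00000021390, chromosome 13, 49761522 to 49777977, plus strand), the class III member, is found in bone and vessel walls. Its level was 5.30, 11.5 and 18.9 RPKM in dFLEx tumors and 5.18 and 3.74 RPKM in KP tumors. The lowest dFLEx tumor exceeded the higher KP tumor by 1.02-fold only. This lies within the range by which duplicates of a tumor differed, from 1.01-fold to 1.05-fold. The log2 fold change was 1.41 (SE 0.72, edgeR adjusted p = 0.596).

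Podocan (Podn; ENSMUSG00000028600, chromosome 4, 107871988 to 107953642, minus strand) binds collagen I and restrains the growth of smooth muscle cells. It was at 2.92, 4.39 and 6.30 RPKM in dFLEx tumors and at 0.24 and 1.23 RPKM in KP tumors. The nearest tumors of the 2 groups differed by 2.38-fold. Its log2 fold change was 2.64 (SE 0.89), with an unadjusted p of 0.018 and an adjusted p of 0.317 in edgeR, and it was 4.26 without KP tumor 3802 and 2.05 without KP tumor 3800.

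**Figure D2:**
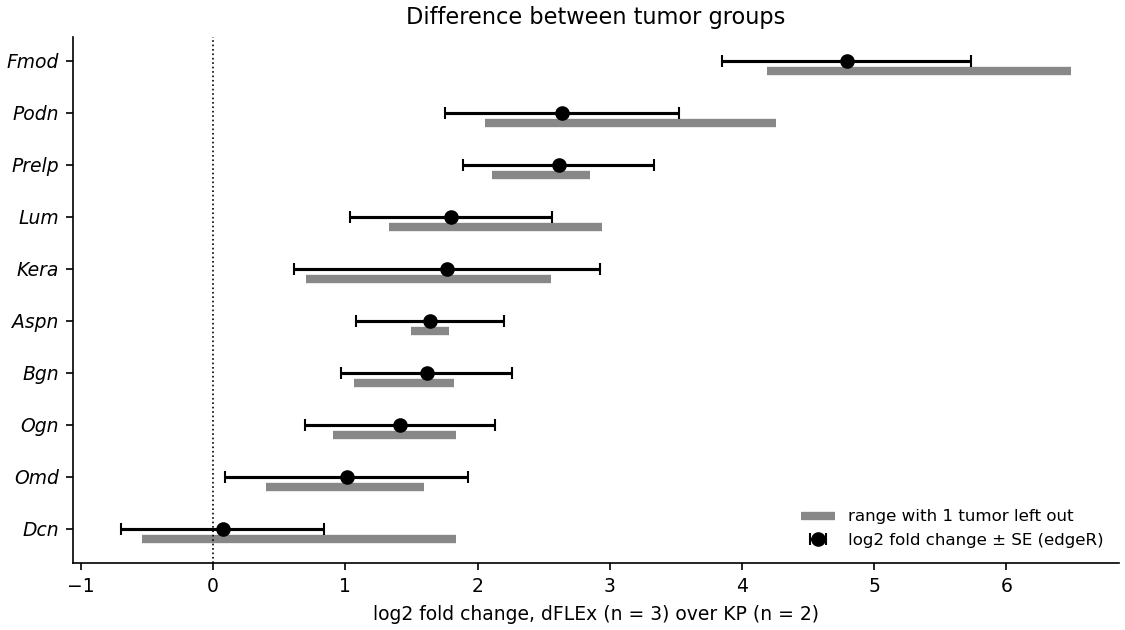
Log2 fold change of dFLEx (n = 3) over KP (n = 2) for the 10 genes, as a black point with its SE from edgeR. Fmod is farthest from 0 at 4.79, Podn and Prelp follow at 2.64 and 2.61, and Dcn lies at 0.07.

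By the tumor they ranked highest in, the members fell into different patterns among the dFLEx tumors. Tumor 170025 was the highest dFLEx tumor for Bgn, Aspn, Prelp, Ogn and Podn and the lowest for Dcn, Lum, Kera and Omd. KP tumor 3802 was above 3800 for all members except Ogn. Duplicates of a tumor differed by at most 1.47-fold for every member but Kera, whereas the KP tumors differed by 5.71-fold for Dcn, 5.45-fold for Fmod and 5.13-fold for Podn.

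To compare members with each other independently of the scaling between libraries, 2 ratios of paralogs were taken within each tumor. The ratio of Fmod to Lum, the paralogs of class II, was 1.04, 1.52 and 2.48 in dFLEx tumors 170019, 170024 and 170025 and 0.13 and 0.21 in KP tumors 3800 and 3802. Fmod was thus above Lum in every dFLEx tumor and below it in both KP tumors. The mean log2 ratio was 0.65 ± 0.63 (SD, n = 3) in dFLEx and -2.63 ± 0.49 (SD, n = 2) in KP, a difference of 3.28, or 9.71-fold. A two-sided exact permutation test gave p = 0.2, the smallest that the 10 splits of 3 against 2 tumors can give, so this design cannot reach 0.05.

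The ratio of Bgn to Dcn, the paralogs of class I, was 1.10, 1.72 and 5.87 in dFLEx tumors and 2.40 and 0.53 in KP tumors. The groups overlapped, and the exact permutation p was 0.6 for a log2 difference of 0.98. The difference was -0.10 without KP tumor 3802.

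**Figure D3:**
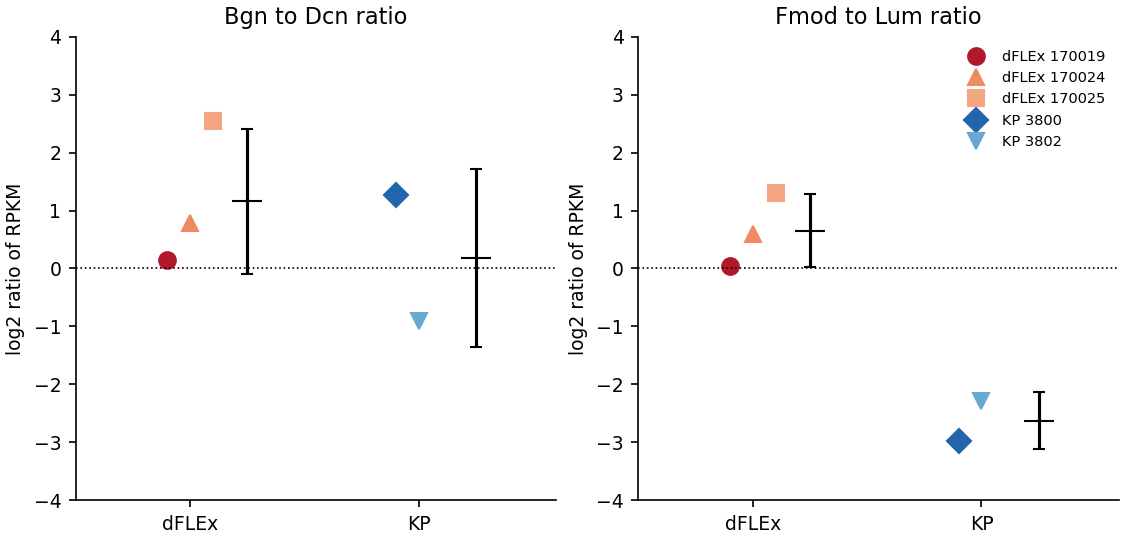
Log2 ratio of RPKM within each tumor for both pairs of paralogs, with the group mean and SD beside the points (dFLEx n = 3, KP n = 2) and a dotted line where the paralogs are equal. For Fmod to Lum the dFLEx points lie above the line, at a mean of 0.65, and the KP points below it, at a mean of -2.63. For Bgn to Dcn the groups overlap.

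Added together, the 10 genes reached 333, 394 and 449 RPKM in dFLEx tumors and 84.7 and 197 RPKM in KP tumors, with the groups apart. Their make-up differed between the models. Class II genes (Lum, Fmod, Prelp, Kera and Omd) held 37.2%, 41.8% and 23.5% of the sum in dFLEx tumors and 10.8% and 14.5% in KP tumors. Class I genes (Dcn, Bgn and Aspn) held 60.3%, 54.2% and 70.9% in dFLEx tumors and 82.8% and 83.0% in KP tumors. Fmod alone accounted for 18.3% ± 4.67 (SD, n = 3) of the sum in dFLEx and for 1.57% ± 0.89 (SD, n = 2) in KP. Among the class II genes only the share of Fmod separated the groups, and those of Lum, Prelp, Kera and Omd overlapped. The shares of Dcn, Bgn and Aspn, taken gene by gene, overlapped too, as did that of Ogn. The small share of Podn separated the groups, at 0.88%, 1.11% and 1.40% in dFLEx tumors and 0.28% and 0.62% in KP tumors. Shares of a tumor add up to a whole, so the lower class I share is not a separate result. The most variable share was that of Dcn in the KP tumors, with 20.0% in 3800 and 49.2% in 3802. As TMM-scaled levels rather than shares, both classes were separated. Class II summed to between 106 and 165 RPKM in dFLEx and to 9.13 and 28.5 RPKM in KP. Class I summed to between 201 and 318 RPKM in dFLEx and to 70.2 and 164 RPKM in KP. For class I this depended on the scaling, as for Lum and Ogn. Its nearest tumors were dFLEx 170019, at 201 RPKM, and KP 3802, at 164 RPKM, with TMM factors of 0.8475 and 1.2058.

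**Figure D4:**
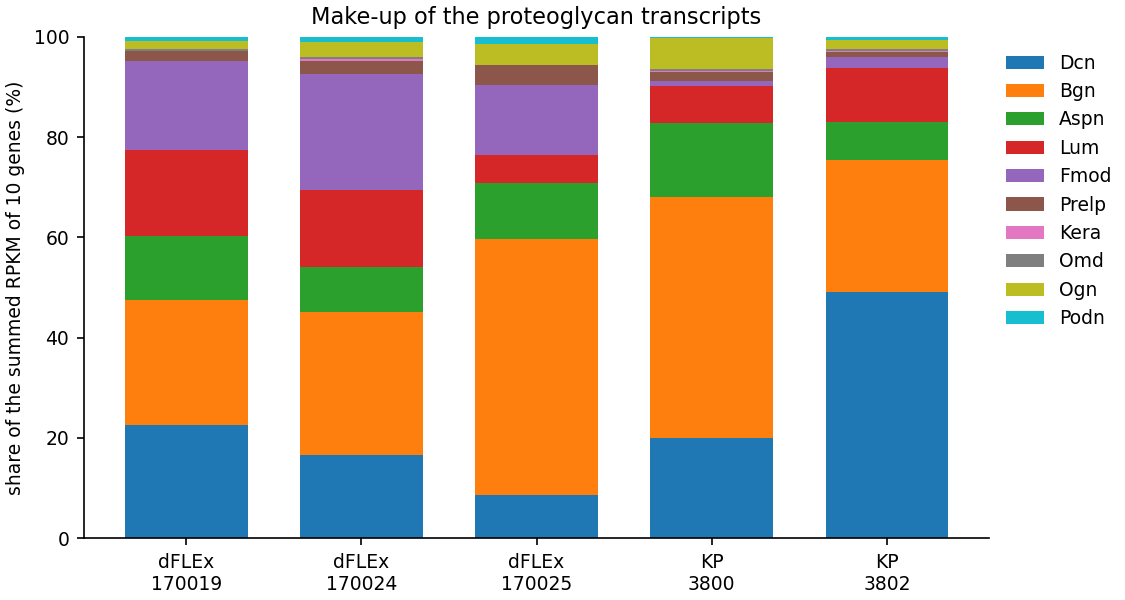
Share of the summed RPKM of the 10 genes that each gene holds, as 1 stacked bar per tumor adding up to 100%. Fmod holds 13.9% to 23.2% of the bar in the dFLEx tumors and 0.94% and 2.20% in KP tumors 3800 and 3802, and Dcn fills 49.2% of the bar of 3802.

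Of the 10 members, 8 lie in 3 clusters of related genes. On chromosome 10, Dcn, Lum, Kera and epiphycan (Epyc), a cartilage member of class III, span 203 kb. Along the 4 genes the log2 fold changes were 0.07, 1.80, 1.77 and 4.51 (SE 2.36 for Epyc, edgeR adjusted p = 0.611). Epyc was low in every tumor but 170024, at 0.27, 2.10 and 0.05 CPM in dFLEx tumors and at 0 and 0.08 CPM in KP tumors. On chromosome 1, opticin (Optc), a class III gene of the eye, Prelp and Fmod span 151 kb. Fmod and Prelp lie 116 kb apart, and Optc lies 2.30 kb from Prelp. Prelp and Fmod were higher in dFLEx, whereas Optc was at 0.27, 0.03 and 0.15 CPM in dFLEx tumors and at 1.87 and 0.33 CPM in KP tumors, with a log2 fold change of -2.84 (SE 1.37, edgeR adjusted p = 0.556).

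On chromosome 13, Ecm2, Aspn, Omd and Ogn span 120 kb, with 11.7 to 15.2 kb between neighbours. Ecm2, a matrix gene with leucine-rich repeats, was at 4.40, 6.59 and 9.28 CPM in dFLEx tumors and at 1.85 and 1.46 CPM in KP tumors. Its log2 fold change was 2.02 (SE 0.69, edgeR adjusted p = 0.329), beside 1.64 for Aspn, 1.01 for Omd and 1.41 for Ogn. The cluster lies within Cenpp, a gene on the opposite strand, but only 7 exonic bases of Aspn (0.297%) overlap an exon of it.

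**Figure D5:**
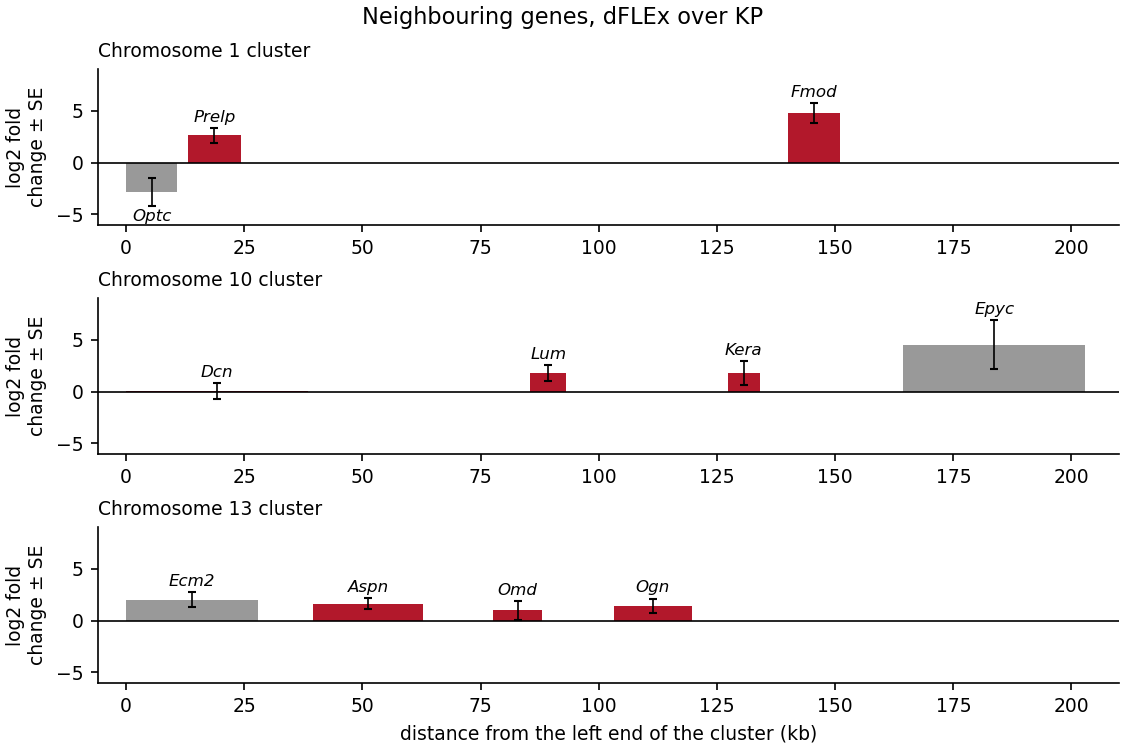
Log2 fold change of dFLEx over KP, with SE, for the genes of the 3 clusters, each bar as wide as its gene and placed by the distance in kb from the left end of the cluster (red for members, grey for Optc, Epyc and Ecm2). Optc, at -2.84, points the other way from Prelp and Fmod, and the 4 genes of the chromosome 13 cluster lie between 1.01 and 2.02.

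Of 8 further small leucine-rich repeat matrix genes, 7 were tested, and none passed an adjusted p of 0.05 in edgeR (3 were higher and 0 lower at an unadjusted p under 0.05). Their median log2 fold change was 2.02, between -2.84 for Optc and 4.51 for Epyc. Among 23 other proteoglycan core proteins, 2 rose and none fell at an adjusted p of 0.05 in edgeR (5 higher and 3 lower at an unadjusted p under 0.05), and the median was 0.10. Aggrecan (Acan), the large chondroitin sulfate proteoglycan of cartilage, rose by 8.52 on the log2 scale (SE 0.82, edgeR adjusted p = 0.0248), from 0.23 and 0.20 CPM in KP tumors to between 65.0 and 94.8 CPM in dFLEx. Glypican 3 (Gpc3), a heparan sulfate proteoglycan of the cell surface, rose by 8.69 (SE 1.11, edgeR adjusted p = 0.048). At the other end, Spock1 was at -4.05 (SE 1.07, edgeR adjusted p = 0.202).

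The enzymes that build the chains were read gene by gene from the same fit. None of 7 enzymes of the linkage region, which start a glycosaminoglycan chain, passed an adjusted p of 0.05 in edgeR (0 in either direction at an unadjusted p under 0.05). Their median was 0.63, from -0.29 for Fam20b to 1.39 for Pxylp1. Of 16 enzymes for chondroitin and dermatan sulfate, none passed either (1 higher and 2 lower unadjusted), the median was 0.51, and the range ran from -2.79 for Ust to 2.36 for Chst7. Of 8 enzymes for keratan sulfate, the chain of fibromodulin and lumican, 7 were tested and none passed (2 higher and 0 lower unadjusted), with a median of 0.99. Chst1, which sulfates the galactose of keratan sulfate, was at 20.4, 22.2 and 63.5 CPM in dFLEx tumors and at 6.25 and 6.18 CPM in KP tumors, with a log2 fold change of 2.51 (SE 0.77, edgeR adjusted p = 0.263). Chst2 was lowest of this list at -0.87.

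Among the molecules these proteoglycans bind, 11 fibrillar collagen genes had a median of 1.19, with 10 above 0 and none past an adjusted p of 0.05 in edgeR (4 higher and 0 lower unadjusted). They ran from -0.16 for Col5a2 to 9.38 for Col2a1, the collagen of cartilage (SE 1.32, edgeR adjusted p = 0.0521). Of 14 growth factors and receptors, none passed (4 higher and 2 lower unadjusted in edgeR), the median was 0.34, and the ends were Met at -4.27 and Bmp4 at 5.16. Of 8 proteases that cleave these proteoglycans, none passed (2 higher and 1 lower unadjusted in edgeR), with a median of 1.19, from -2.47 for Mmp3 to 4.71 for Mmp13.

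Lists of markers for several cell types were also read, and their part in the differences above was not tested. Fibroblast markers (10 genes, median 1.30, none past an adjusted p of 0.05 in edgeR and 4 higher unadjusted) summed to 896 to 1337 CPM in dFLEx and to 538 and 654 CPM in KP. Their log2 fold changes ran from -0.12 for Fbln2 to 2.41 for Clec3b. Chondrocyte markers (6 genes, median 8.14, with Acan past the adjusted threshold, 5 of 6 higher unadjusted) summed to 602, 1013 and 2503 CPM in dFLEx tumors and to 1.91 and 7.27 CPM in KP tumors, so the cartilage genes that define this list were near 0 in both KP tumors. They ran from 1.41 for Col10a1 to 9.38 for Col2a1. Osteoblast markers (8 genes, median 1.42) summed to 112 to 442 CPM in dFLEx and to 23.9 and 117 CPM in KP, with 3 higher and 2 lower unadjusted. Alpl, the alkaline phosphatase of mineralizing bone, rose by 6.19 (SE 0.83, edgeR adjusted p = 0.048), Ibsp was at 9.00 and Phex at -5.06. Bglap2, an osteocalcin gene named after its values were seen, was at 0 CPM in 3 of the 5 tumors. The 4 tendon markers had a median of 0.11, from -0.65 for Scx to 1.73 for Thbs4, with 224 to 330 CPM in dFLEx and 148 and 175 CPM in KP, and 1 was higher unadjusted.

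The other lists described here had no gene past an adjusted p of 0.05 in edgeR. Skeletal myocyte markers (8 genes, median 2.57, Myh1 1.97 to Myh4 3.17, 6 higher unadjusted) summed to 9774 to 37838 CPM in dFLEx and to 1376 and 4793 CPM in KP. In each of the next 3 lists, 1 gene was higher at an unadjusted p under 0.05 and none was lower. Adipocyte markers (4 genes, median 2.27, Lep 1.54 to Plin1 2.58) summed to 17.5 to 71.1 CPM in dFLEx and to 1.67 and 13.6 CPM in KP, with no overlap. Pericyte and smooth muscle markers (6 genes, median 1.30, Acta2 -0.94 to Rgs5 2.38) summed to 618 to 1206 CPM in dFLEx and to 347 and 642 CPM in KP, which overlapped. Endothelial markers (6 genes, median 1.25, Cldn5 0.07 to Pecam1 2.15) summed to 279 to 551 CPM in dFLEx and to 156 and 176 CPM in KP. The immune lists lay the other way. Macrophage markers (7 genes, median -1.65, C1qa -2.45 to Cd68 0.24, 5 lower unadjusted) summed to 1055 to 1341 CPM in dFLEx and to 2800 and 5628 CPM in KP. T cell markers (5 genes, median -2.18, Cd3d -3.65 to Cd4 -0.13, 3 lower unadjusted) summed to 5.16 to 7.41 CPM in dFLEx and to 9.38 and 44.2 CPM in KP.

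Dividing the members by the summed RPKM of the fibroblast markers of the same tumor changed which of them separated the groups. Per fibroblast marker level, all dFLEx values of Aspn, Fmod, Prelp and Podn exceeded both KP values, and the other 6 members overlapped. How many of all genes separate on this measure was not computed, so whether this is unusual cannot be told. The ratio for Fmod was 0.280, 0.425 and 0.199 in dFLEx tumors 170019, 170024 and 170025 and 0.00622 and 0.0366 in KP tumors 3800 and 3802, so these groups did not overlap. For Bgn the ratio was 0.392, 0.524 and 0.733 in dFLEx and 0.318 and 0.437 in KP, and for Lum tumor 170025, at 0.0804, lay under KP tumor 3802, at 0.178. The 10 members together were at 1.57, 1.83 and 1.44 times the fibroblast marker level in dFLEx tumors and at 0.66 and 1.66 times in KP tumors, which overlapped.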

How the data were processed

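The authors trimmed reads with Trimmomatic 0.39, aligned them with STAR 2.7.10a to GRCm39 (mm39) plus a CIC::DUX4 contig, and deposited raw counts per gene from featureCounts (Subread 2.0.3). Per the file headers, strand was ignored, each mate counted as a read, and reads over several genes or with several alignments were left out. Of 10 labelled libraries, 9 had a column, and the second library of KP tumor 3802 was not analysed here. One allele of the KP genotype and one marker list are not reported here. Duplicate counts were summed per tumor where both had a column, filtered with filterByExpr, scaled by TMM and compared in edgeR 4.0.16 (glmQLFit, glmQLFTest) with p-values adjusted by Benjamini-Hochberg across the 24743 genes tested. SE was derived from the fold change and the F statistic (size of the log2 value over the root of F). Whether tumors of a group came from separate mice is not in the labels used here, so p-values measure the spread between these tumors. Ratios within tumors were compared by exact permutation tests in SciPy 1.17.1. DESeq2 1.42.0 and limma 3.58.1 served for alternatives, together with other scalings and filters, single libraries, and each tumor left out. The edgeR step was tested on simulated data with changes larger than those of every member but Fmod. It therefore does not show how often changes as small as theirs would be called. Count limits cover counting error only: 3 counts equal 0.0648 to 0.146 CPM in these libraries. The genes named are all 10 members, their genomic neighbours, and, in each list, genes past an adjusted p of 0.05 and both extremes of log2 fold change. Bglap2 was named besides these. The members and lists were chosen with earlier results of these data known.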

Additional observations from a re-analysis of the deposited data

How the results depend on the processing

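In edgeR on tumor sums 45 genes and 0 members were called. DESeq2 on tumor sums called 1388 genes and 3 members (Fmod, Prelp and Podn), limma-voom on libraries with tumors as random effects 543 genes and 3 members (Aspn, Fmod and Podn; 1.61% of genes higher), and edgeR with no filter on low counts 880 genes and 1 member (Fmod; 1.19% of genes higher). A mean of at least 1 CPM gave 80 genes and 0 members. Taking libraries as independent samples, edgeR called 3344 genes and 5 members (Bgn, Aspn, Fmod, Prelp and Podn; 8.24% of genes higher), and DESeq2 4815 genes and 7 members (also Lum and Ogn; 9.79%), but duplicates share 1 RNA, so these fits understate the spread between tumors. With the duplicate number as a replicate block, edgeR on libraries called 2476 genes and the same 5 members (6.14% of genes higher). The numbers do not pair the tumors: the correlation of duplicate differences between tumors was -0.01 to 0.07 over 6 pairs. Leaving out 1 tumor gave 0 to 414 genes called, the most without KP tumor 3802 and 0 without dFLEx 170019 or 170024, and 0 to 1 members (Fmod).

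For the members, 126 alternative values kept the direction and side of the threshold, 25 passed it in the same direction, and 9 reversed, all for Dcn. Most of the 25 came from fits that took the duplicates as separate samples. The log2 fold change of Dcn was -0.027 in DESeq2 on tumor sums, -0.069 with RLE size factors, -0.31 with library totals, -0.36 with the upper quartile, -0.24 when genes needed a mean of 1 CPM or more, -0.13 in the first library of each tumor, and -0.54 to 1.84 with 1 tumor left out (-0.21 without 170019, -0.029 without 170024, -0.54 without 3800). That of Fmod was 4.19 to 6.49 with 1 tumor left out. Library totals lowered the log2 fold change of all genes by a median of 0.30 and the upper quartile by 0.21. Leaving out 1 tumor gave log2 differences of 2.93 to 3.63 for Fmod to Lum, -0.10 to 2.06 for Bgn to Dcn, 0.98 to 2.20 for the summed level, and -0.049 to 1.28 per fibroblast marker level. Depth limits the genes of few counts, such as Kera with 4 to 107 counts per library. The causes of these changes were not tested.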
